A study of Mus musculus with 10 samples.

Results

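Endothelin, nitric oxide, prostanoids and natriuretic peptides set the tone of the vessels and mesangium of the kidney filter, and 10 genes of these systems (Edn1, Ednra, Ednrb, Ece1, Nos1, Nos3, Ptgs1, Ptgs2, Ptgis and Npr1) were followed in glomeruli of mice with a missense allele of Wt1. They were taken by name, through every probe set whose platform annotation names exactly 1 gene. Of the 10 genes, 8 were measured, by 16 probe sets, among 18193 genes and 34945 single-gene probe sets in all. Ednra and Ptgs1 had no such probe set and were not analysed here. Glomeruli came from 5 male mice heterozygous for the R394W knock-in of Wt1 (Wt1 +/R394W, mutants below) and from 5 male Wt1 +/+ littermates, all 27 days old and not yet weaned, on FVB/N after 4 generations of backcrossing. The allele is present in the germ line, so it is not limited to one cell type of the glomerulus. The mutants had little albuminuria and light microscopy showed no mesangial lesions, so expression was read at an early stage. Each mouse gave 1 array, and precision is limited by how many there were.

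Wt1 encodes a zinc finger transcription factor that podocytes, the epithelial cells of the filter, keep making in adult life, and this substitution is found in patients with Denys-Drash syndrome, a childhood kidney disease with mesangial sclerosis. Endothelin-1 is cut from a larger precursor by endothelin-converting enzyme, and acts on receptor A, which constricts vessels, and on receptor B, which in endothelium releases nitric oxide and clears the peptide. Nitric oxide and natriuretic peptides both raise cyclic GMP, through a soluble and a membrane-bound guanylyl cyclase, and relax mesangial and smooth muscle cells. Prostanoids are made from arachidonic acid by cyclooxygenases and then by synthases that differ between products.

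Values are log2 expression values made with RMA, which brings arrays to a common distribution and combines the probes of each set into 1 value. Arrays correlated with each other at 0.985 to 0.997 over all probe sets. The Wt1 transcript, read by 1 probe set, lay between 11.43 and 11.85 in mutants and between 11.06 and 11.45 in wild types. Its difference of 0.33 ± 0.10 (SE, n = 5 mice per genotype, adjusted p = 0.244) does not check the labels, because a missense allele need not change the amount of transcript. The markers of the labelled tissue were strongly detected: means were 12.89 in mutants and 12.97 in wild types for Nphs1 of podocytes, 13.81 and 13.86 for Emcn of endothelium, and 13.84 and 13.72 for Itga8 of mesangium. Tubule was carried along to a degree that differed between mice of both genotypes, as the mean of 10 proximal tubule markers ran from 7.33 to 10.69 in mutants and from 7.10 to 9.61 in wild types. The mean of 8 collecting duct markers ran from 6.02 to 7.19 in mutants and from 5.99 to 6.97 in wild types, and that of 8 leukocyte markers from 6.59 to 7.23 in mutants and from 6.70 to 7.49 in wild types. The mean of 4 erythroid markers was lower in every mutant (6.66 to 7.11) than in any wild type (7.13 to 7.82). Of these lists, 1 leukocyte gene and 1 erythroid gene passed the test described next, both lower in mutants.

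None of the 16 member probe sets passed an adjusted p of 0.05 in limma, where 0.853% of all 45037 probe sets did. At an unadjusted p under 0.05 there were 5 of 16, both Ptgs2 probe sets among them, against 9.36% of all probe sets. By the probe set of highest mean of each gene there were 3 of 8, against 11% of all genes. The members were chosen with earlier results of these data known, so these counts are a description only. The median difference, mutant minus wild type, was 0.01 over the 16 probe sets and 0.00 over all probe sets, with 8 positive and 8 negative. The largest differences were those of Edn1 (0.75) and Ptgs2 (0.56), with higher means in mutants, and of Nos3 (-0.37), with a lower mean in mutants. Nos3 was also the gene whose genotypes did not overlap, 1 of 16 probe sets, against 2.78% of all probe sets.

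**Figure D1:**
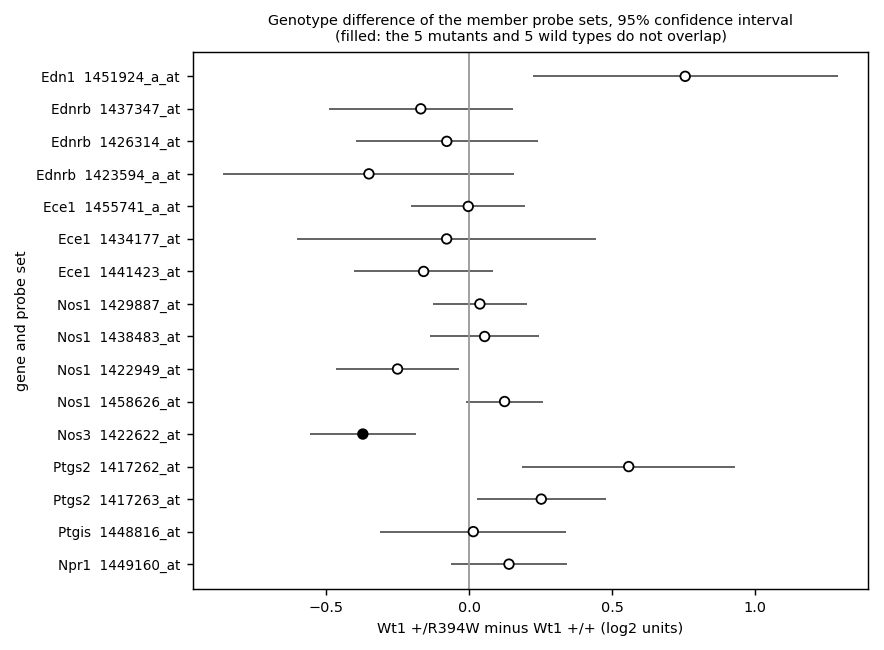
Difference between genotypes of each of the 16 probe sets (Wt1 +/R394W minus Wt1 +/+, log2 units, x axis), with its 95% confidence interval; filled circles mark probe sets in which the 5 mutants and the 5 wild types do not overlap. The intervals of Edn1, both Ptgs2 probe sets, Nos3 and 1 of 4 Nos1 probe sets lie on one side of 0, and no adjusted p is under 0.05.

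Edn1, which encodes the precursor of endothelin-1, had the largest difference of the group. Its probe set (1451924_a_at, chromosome 13) read 9.36, 8.42, 8.77, 9.31 and 9.49 in mutants 1 to 5, against 8.25, 8.90, 7.77, 8.07 and 8.59 in wild types 1 to 5. Mutants 1, 4 and 5 lay above every wild type, whereas mutants 2 and 3 lay within the wild-type range. The means were 9.07 ± 0.46 and 8.32 ± 0.44 (SD, n = 5 each). The difference of 0.75 ± 0.24 (SE), a 1.69-fold higher mean in mutants with a 95% interval of 1.17 to 2.44, had an adjusted p of 0.281 and so did not pass. Leaving out any single mouse gave differences of 0.62 to 0.92 and adjusted p-values of 0.142 to 0.496. Of 9 mesangial and smooth muscle markers, 6 had positive and 3 negative differences, and none passed. Acta2, smooth muscle actin, averaged 12.33 in mutants and 11.44 in wild types, and Tagln 11.13 and 10.36, with adjusted p of 0.243 and 0.369. Negative were Des (-0.15 ± 0.08 SE), Pdgfrb (-0.12 ± 0.16 SE) and Cspg4 (-0.21 ± 0.06 SE, adjusted p = 0.249), the last with 9.13 to 9.33 in mutants and 9.37 to 9.54 in wild types, without overlap. The mean of the 9 markers ran from 10.37 to 10.85 in mutants and from 10.27 to 10.54 in wild types, and of the mutants it was highest in mutants 5 and 1, the mice with the highest Edn1. Deviations of Edn1 and of this mean from their genotype means correlated at r = 0.863 over the 10 arrays. The part of these cells in the Edn1 values was not tested.

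Ece1, the converting enzyme, did not pass in any of 3 probe sets. Its probe set with the highest signal (1455741_a_at, chromosome 4) read 10.67 ± 0.17 in mutants and 10.67 ± 0.12 in wild types (SD, n = 5 each). The difference was 0.00 ± 0.09 (SE, adjusted p = 0.996), with a 95% interval of -0.20 to 0.20. On the linear scale the interval runs from 0.869-fold to 1.15-fold. The second probe set, 1434177_at, varied far more between mice, with 10.64, 10.60, 10.22, 9.89 and 9.76 in mutants 1 to 5 and 10.64, 10.90, 10.27, 9.95 and 9.75 in wild types 1 to 5. Both genotypes covered nearly the same range, and the difference was -0.08 ± 0.24 (SE, adjusted p = 0.949), or -0.22 to 0.07 with any single mouse left out. The third, 1441423_at, had a low mean signal of 4.52 and a difference of -0.16 ± 0.11 (SE, adjusted p = 0.732).

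Ednrb, the type B receptor, had a lower mean in mutants in each of its 3 probe sets on chromosome 14, and none passed. The differences were -0.17 ± 0.15 (SE, 1437347_at), -0.08 ± 0.15 (SE, 1426314_at) and -0.35 ± 0.23 (SE, 1423594_a_at), with adjusted p of 0.795, 0.913 and 0.710. All 3 moved by over 1.5 times with 1 mouse left out: without mutant 5 they were -0.06 (1437347_at), 0.03 (1426314_at) and -0.21 (1423594_a_at), and without wild type 2 they were -0.08, -0.02 and -0.22. In the probe set with the highest signal, 1437347_at, mutants 1 to 5 read 12.82, 12.91, 12.65, 12.46 and 12.18, and wild types 1 to 5 read 12.70, 13.15, 12.54, 12.78 and 12.70. The genotypes overlapped, with mutants 4 and 5 below every wild type and wild type 2 above every mutant. Its 95% interval of -0.49 to 0.15 corresponds to 0.711-fold to 1.11-fold.

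The 3 Ednrb probe sets ranked the mice alike. Over the 10 arrays, deviations from the genotype means correlated at r = 0.914, 0.862 and 0.920 between pairs of Ednrb probe sets. The variable Ece1 probe set, 1434177_at, followed them at r = 0.760, 0.755 and 0.858. The third Ece1 probe set, 1441423_at, of low signal, did so at r = 0.781, 0.782 and 0.810. For the strongest Ece1 probe set, 1455741_a_at, the values were r = 0.136, 0.356 and 0.0637. It correlated at r = -0.102 with 1434177_at and at r = -0.0542 with 1441423_at, and those correlated with each other at r = 0.675. Probe sets annotated to the same gene thus did not all order the mice alike. These correlations are given as a description of 10 arrays that share preparation and normalization. Beside them, deviations of the proximal tubule mean correlated at r = 0.312, 0.402 and 0.552 with Ednrb 1437347_at, 1426314_at and 1423594_a_at. The collecting duct mean gave r = 0.363, 0.539 and 0.623. With Ece1 1434177_at, 1441423_at and 1455741_a_at the proximal tubule mean gave r = 0.380, 0.651 and 0.00807. Ece1 1455741_a_at correlated at r = 0.819 with the mean of 12 endothelial markers and at r = 0.799 with the leukocyte mean. The part of tubule and of these other cells in the values was not tested.

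**Figure D2:**
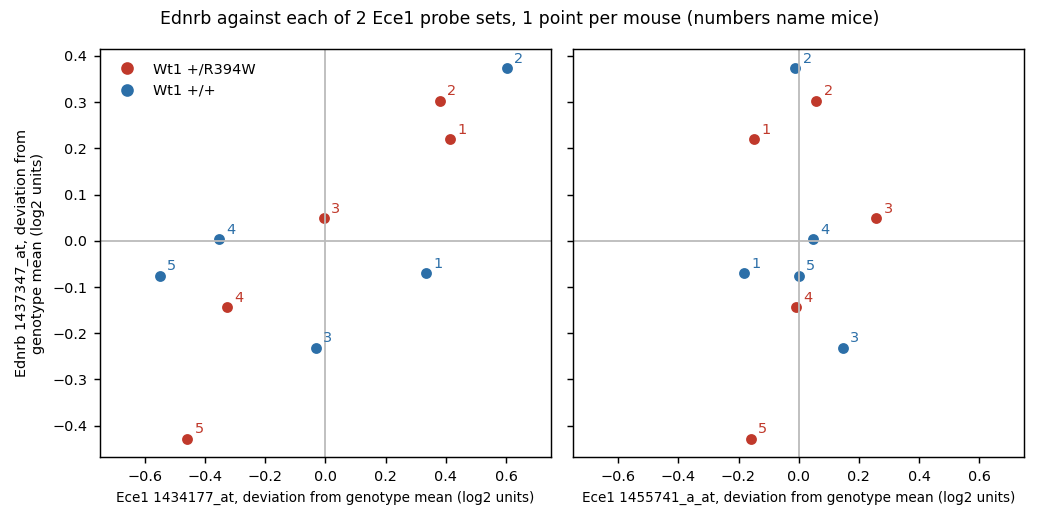
Deviation of Ednrb 1437347_at from its genotype mean (log2 units, y axis) against that of Ece1 1434177_at (left) and Ece1 1455741_a_at (right), with 1 point per mouse and numbers that only name the mice. Ednrb follows the first Ece1 probe set (r = 0.760) and not the second (r = 0.136), and the spread of the second is narrower. The third Ece1 probe set, 1441423_at (r = 0.781), is not shown.

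Nos3, the nitric oxide synthase of endothelium, was lower in every mutant than in any wild type. Its single probe set (1422622_at, chromosome 5) read 9.20, 9.44, 9.54, 9.49 and 9.50 in mutants 1 to 5, and 9.73, 10.04, 9.72, 9.74 and 9.80 in wild types 1 to 5. The highest mutant (9.54) and the lowest wild type (9.72) were separated by less than the distance of wild type 2 from its group. The means were 9.43 ± 0.14 and 9.81 ± 0.13 (SD, n = 5 each), and the difference of -0.37 ± 0.08 (SE), or 0.773-fold with a 95% interval of 0.679 to 0.879, had an adjusted p of 0.0863. It passed after quantile normalization of the deposited values (-0.39, adjusted p = 0.0415). Over the other alternatives at the same threshold the adjusted p lay above 0.05, up to 0.378. Of 12 endothelial markers, 2 had positive and 10 negative differences, and none passed. Pecam1 differed by -0.02 ± 0.11 (SE), Kdr by -0.06 ± 0.12 (SE) and Emcn by -0.04 ± 0.08 (SE), while the tight junction gene Cldn5 differed by -0.50 ± 0.14 (SE, adjusted p = 0.202), Flt1 by -0.25 ± 0.08 (SE, adjusted p = 0.265) and Robo4 by -0.25 ± 0.08 (SE, adjusted p = 0.254). The mean of the 12 markers was 11.74, 11.83, 12.01, 11.82 and 11.69 in mutants 1 to 5, and ran from 11.85 to 12.04 in wild types. Of the mutants, only mutant 3 reached the wild-type range of this mean. Deviations of Nos3 and of this mean from their genotype means correlated at r = 0.581 over the 10 arrays. The part of endothelial cells in the Nos3 values was not tested. In whole glomeruli, fewer cells of a type and less RNA per cell cannot be told apart.

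Nos1, the neuronal synthase that the macula densa of the kidney also makes, had 4 probe sets (chromosome 5) whose differences had both signs. Positive differences were 0.04 ± 0.07 (SE, 1429887_at), 0.05 ± 0.09 (SE, 1438483_at) and 0.12 ± 0.06 (SE, 1458626_at), with adjusted p of at least 0.584. The remaining one, 1422949_at, was -0.25 ± 0.10 (SE, adjusted p = 0.434). In that probe set the mutants were tightly grouped at 5.54 to 5.60, and the wild types spread from 5.59 to 6.20, with 4 of 5 wild types above every mutant. The highest value was that of wild type 4, without which the difference was -0.16 (adjusted p = 0.532). Mean signals of 1458626_at, 1422949_at and 1438483_at were 4.16, 5.70 and 5.80, below the median of 6.36 of all probe sets. The thick ascending limb, which holds the macula densa, was carried along unevenly: the mean of its 5 markers ran from 6.88 to 9.23 in mutants and from 6.82 to 9.30 in wild types. Its part in the Nos1 values was not tested.

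Ptgs2 encodes the inducible cyclooxygenase, the first enzyme of prostanoid synthesis. Its stronger probe set (1417262_at, chromosome 1) read 5.70, 5.06, 5.39, 5.07 and 5.61 in mutants 1 to 5, and 4.47, 5.29, 4.92, 4.75 and 4.61 in wild types 1 to 5. Mutants 1, 3 and 5 lay above every wild type, and wild type 2 lay above mutants 2 and 4. The means were 5.37 ± 0.30 and 4.81 ± 0.32 (SD, n = 5 each), with a difference of 0.56 ± 0.17 (SE, adjusted p = 0.250). The second probe set, 1417263_at, had a difference of 0.25 ± 0.10 (SE, adjusted p = 0.465) and mutants 1, 4 and 5 above every wild type. Both have low mean signals of 5.09 and 4.25. Ptgs2 is also an immediate early gene in many cells, and 10 immediate early genes had means of 8.91 to 9.71 in mutants and 9.10 to 9.68 in wild types, with 0 past the test. Deviations from the genotype means correlated with those of that mean at r = 0.688 for 1417262_at and at r = 0.0776 for 1417263_at over the 10 arrays, and their part in the Ptgs2 values was not tested.

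Ptgis, prostacyclin synthase, read 6.83 ± 0.24 in mutants and 6.81 ± 0.28 in wild types (SD, n = 5 each, 1448816_at, chromosome 2), a difference of 0.01 ± 0.15 (SE, adjusted p = 0.987) with a 95% interval of -0.31 to 0.34. On the linear scale the interval runs from 0.806-fold to 1.27-fold.

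Npr1, the guanylyl cyclase receptor of atrial and brain natriuretic peptides, read 7.10, 7.45, 7.28, 7.18 and 7.25 in mutants 1 to 5, and 6.96, 7.34, 7.24, 7.02 and 7.00 in wild types 1 to 5 (1449160_at, chromosome 3). The genotypes overlapped, with 1 mutant above every wild type. The difference of 0.14 ± 0.09 (SE, adjusted p = 0.710) had a 95% interval of -0.06 to 0.34.

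**Figure D3:**
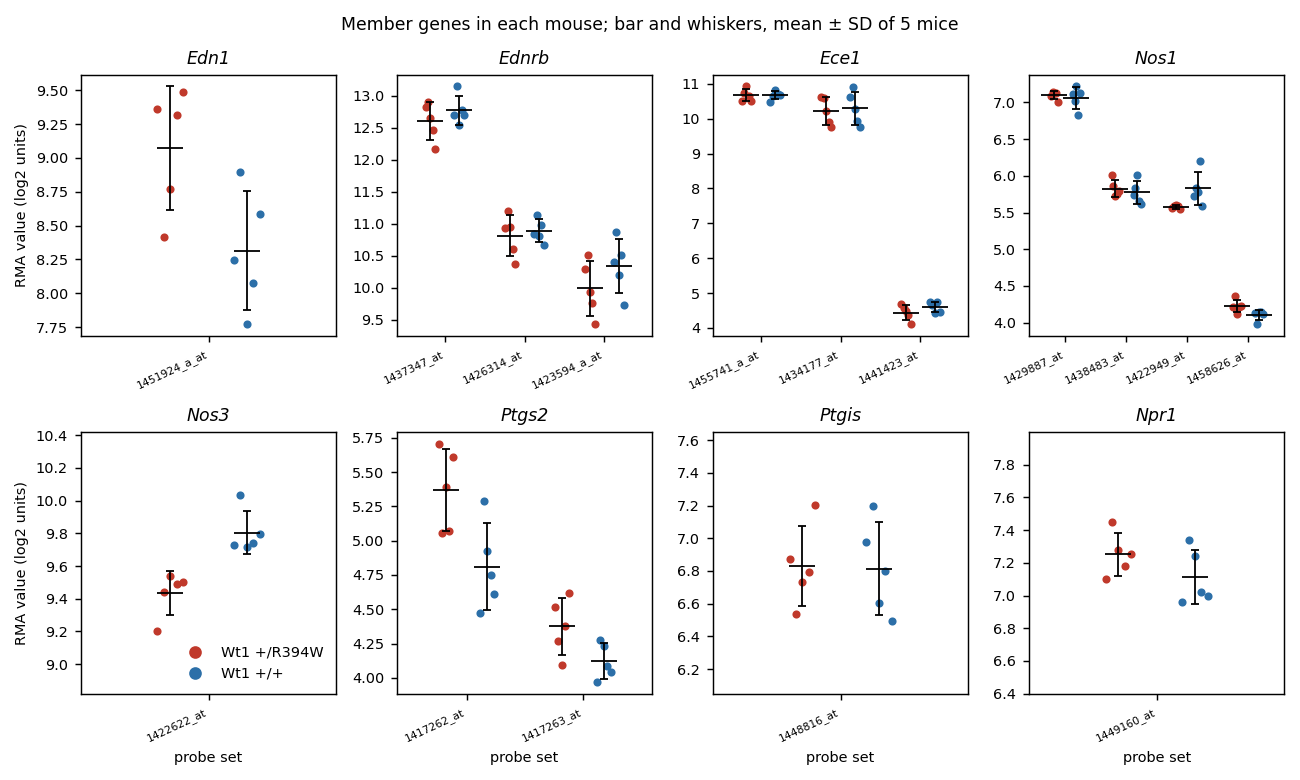
RMA values (log2 units) of the 8 measured genes, with 1 panel per gene and 1 position per probe set; each point is 1 mouse, mutants left and wild types right, and bars with whiskers are the mean ± SD of 5 mice. The y axes do not start at 0 and differ between panels. Points overlap in every panel except that of Nos3.

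A wider set of 69 genes of the same systems was examined beside the members, and 65 were measured. These lists were chosen with earlier results of these data known, so their counts are a description only. With 1 probe set per gene, that with the highest mean, 2 of 65 passed, which is 1 higher and 1 lower, where 1.26% of all 18193 genes did. The genotypes did not overlap in 3 of the 65, against 3.67% of all genes. The median difference was 0.02 over these 65 genes and 0.00 over all genes. Both called genes belong to the prostanoid branch: Ptgds rose and Ptgfr fell.

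Ptgds, lipocalin-type prostaglandin D synthase, makes prostaglandin D2 from the product of the cyclooxygenases. Its probe set 1423859_a_at (chromosome 2) read 9.28, 8.95, 8.93, 9.15 and 8.99 in mutants 1 to 5, and 8.08, 8.50, 8.40, 7.96 and 8.08 in wild types 1 to 5. Every mutant lay above every wild type. The difference was 0.86 ± 0.11 (SE, adjusted p = 0.00428), or 1.81-fold. The other probe set, 1423860_at, rose by 1.14 ± 0.12 (SE, adjusted p = 0.000794), with 7.76 to 8.22 in mutants and 6.70 to 7.20 in wild types. Restricted to the 7 mice that remain without wild types 1 and 5 and mutant 5, 1423859_a_at did not pass (0.79, adjusted p = 0.110).

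Ptgfr is the receptor of prostaglandin F2 alpha, which raises calcium in contractile cells. Its mean was lower in mutants in all 5 of its probe sets (chromosome 3), and 3 of the 5 passed. The one with the highest mean, 1420349_at, read 5.30, 5.29, 5.01, 5.23 and 4.56 in mutants 1 to 5, and 5.97, 6.16, 6.46, 6.12 and 5.74 in wild types 1 to 5. No mutant reached the lowest wild type. It fell by 1.01 ± 0.16 on the log2 scale (SE, adjusted p = 0.0139). Probe sets 1449828_at (-0.70 ± 0.08 SE, adjusted p = 0.00157) and 1453924_a_at (-0.69 ± 0.12 SE, adjusted p = 0.0257) fell too. The remaining pair, 1446331_at (-0.63 ± 0.13 SE, adjusted p = 0.0512) and 1440777_x_at (-0.27 ± 0.06 SE, adjusted p = 0.0824), did not pass, although the genotypes did not overlap in any of the 5 probe sets. All 5 have mean signals below the median of all probe sets, between 3.83 and 5.58.

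**Figure D4:**
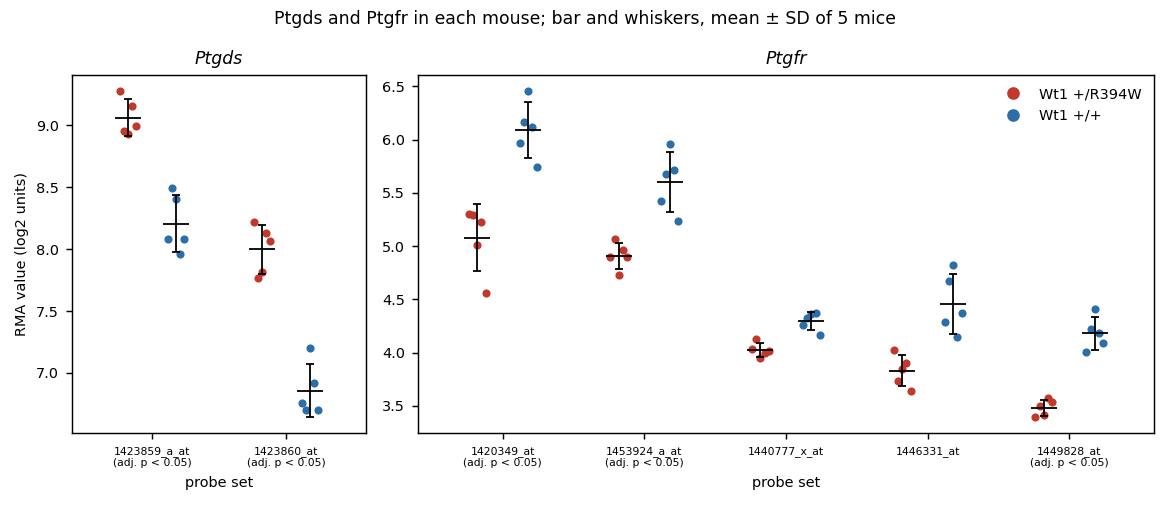
RMA values (log2 units) of the 2 Ptgds and 5 Ptgfr probe sets; each point is 1 mouse, mutants left and wild types right, with the mean ± SD of 5 mice, and the y axes do not start at 0. Mutants lie above wild types in both Ptgds probe sets and below them in all 5 Ptgfr probe sets.

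The sequences before the annotated starts of these genes are shown because both transcripts differed in mice with a changed transcription factor. They are the 250 bases upstream of the start in RefSeq (GRCm38.p6), at chr2:25469750-25469999, minus strand, for Ptgds and chr3:151837529-151837778, minus strand, for Ptgfr. Capitals mark matches, on either strand, to any of 3 motifs: GCGNGGGCG, which the zinc fingers of early growth response factors read and which WT1 lacking the KTS insert also binds, the GC box GGGCGG of Sp1, and TGANTCA of AP-1.
Ptgds: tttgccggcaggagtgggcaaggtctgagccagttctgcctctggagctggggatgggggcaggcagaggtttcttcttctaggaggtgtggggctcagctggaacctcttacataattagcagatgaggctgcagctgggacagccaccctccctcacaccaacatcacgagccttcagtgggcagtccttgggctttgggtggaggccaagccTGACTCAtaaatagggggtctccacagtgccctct
Ptgfr: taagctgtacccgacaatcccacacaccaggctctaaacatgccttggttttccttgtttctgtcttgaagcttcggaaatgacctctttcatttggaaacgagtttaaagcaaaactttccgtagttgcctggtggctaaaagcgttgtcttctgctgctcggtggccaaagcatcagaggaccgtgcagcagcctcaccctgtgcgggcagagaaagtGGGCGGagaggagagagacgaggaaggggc

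The Ptgds window holds 1 match to TGANTCA, which 6.75% of all 32851 windows hold, and the Ptgfr window 1 match to GGGCGG, which 32.7% hold. Neither holds GCGNGGGCG, found in 4.7% of all windows. Of the 10 members, 8 had 11 windows in all, and Npr1 was the member with a match to GCGNGGGCG. That stretch, chr3:90465907-90465935 on the minus strand, holds it on the opposite strand, overlapping 2 matches to GGGCGG.
Npr1: ccccccaccCCGCCCCCGCCCgcctccgg

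A match is a description of letters in the reference and not evidence of binding, and the Npr1 transcript was not called different. Among the other members, GGGCGG was present in 2 of the 4 Ece1 windows and in the Ptgs2 window, and TGANTCA in none.

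Other prostanoid genes had differences that did not pass. Of 18 measured genes, 9 were positive and 9 negative. Pla2g4a, the phospholipase that releases arachidonic acid, was 0.39 ± 0.10 (SE, adjusted p = 0.154), with 10.96 to 11.23 in mutants and 10.41 to 10.99 in wild types, so that only 1 wild type overlapped. Including Ptgds and Ptgfr, 6 of the 18 had an unadjusted p under 0.05, against 11% of all genes. Among them, and picked here after their values were seen, were the prostaglandin E2 receptor gene Ptger2 (-0.78 ± 0.25 SE, adjusted p = 0.282) and the prostacyclin receptor gene Ptgir (0.62 ± 0.18 SE, adjusted p = 0.208).

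None of 20 nitric oxide and cyclic GMP genes passed, where 1.26% of all genes did. An unadjusted p under 0.05 was found in 2 of the 20, against 11% of all genes. Gucy1b1, the beta subunit of soluble guanylyl cyclase, read 11.44, 11.66, 11.72, 11.58 and 11.66 in mutants 1 to 5, and 11.32, 11.16, 11.28, 11.23 and 11.44 in wild types 1 to 5 (1420872_at). The ranges touched at mutant 1 and wild type 5, and the difference was 0.32 ± 0.07 (SE, adjusted p = 0.0812). It passed with a variance trend in the model (adjusted p = 0.0485) and without mutant 1 (0.0498), and the values over all alternatives ran from 0.0464 to 0.236. The other Gucy1b1 probe set, 1420871_at, had a difference of 0.33 ± 0.10 (SE, adjusted p = 0.226). Ddah1, which breaks down an endogenous inhibitor of nitric oxide synthases, was 0.56 ± 0.16 (SE, adjusted p = 0.221) by its brightest of 5 probe sets. The 5 ran from 0.16 (1434519_at) to 0.56, and none passed. The smallest adjusted p was 0.121 (1454995_at, 0.50 ± 0.12 SE). In 1429299_at the genotypes did not overlap (0.48 ± 0.12 SE, adjusted p = 0.134). Gch1, the first enzyme of the synthesis of the synthase cofactor, was -0.20 ± 0.09 (SE, adjusted p = 0.547).

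Of the 5 other endothelin genes none passed, where 1.26% of all genes did. At an unadjusted p under 0.05 there was 1 of the 5, against 11% of all genes. Mme, the membrane peptidase neprilysin that degrades endothelin and natriuretic peptides, was closest: it read 11.40, 11.08, 10.98, 10.72 and 11.28 in mutants 1 to 5, and 11.56, 11.81, 11.62, 11.54 and 11.70 in wild types 1 to 5 (1455961_at). All mutants lay below all wild types, and the difference was -0.56 ± 0.12 (SE, adjusted p = 0.0620). In its other probe set, 1422975_at, mutant 5 (9.53) lay above wild type 5 (9.49), so the genotypes overlapped, and the difference was -0.51 ± 0.13 (SE, adjusted p = 0.120). The adjusted p of 1455961_at lay between 0.0316 and 0.292 over the alternatives and was under 0.05 without mutant 1 (0.0336), among others. Mme is made by podocytes and by proximal tubule, whose markers were uneven between mice as given above. The mean of 6 podocyte markers ran from 12.41 to 12.77 in mutants and from 12.66 to 12.84 in wild types. Of the mutants, only mutant 3 (12.77) reached the wild-type range of this mean. All 6 podocyte markers had negative differences, with 0 past the test. The part of podocytes and of tubule in the Mme values was not tested. Edn3 (-0.11 ± 0.13 SE, with both signs among its 4 probe sets) and Ecel1 (-0.05 ± 0.07 SE) followed, with adjusted p of 0.852 and 0.894.

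None of 7 natriuretic peptide genes and none of 15 measured other vasoactive genes passed, where 1.26% of all genes did. An unadjusted p under 0.05 was found in 0 of the 7 and 1 of the 15, against the same 11% of all genes. In the natriuretic list the smallest p-values belonged to the clearance receptor gene Npr3 (0.16 ± 0.08 SE), the receptor gene Npr2 (0.24 ± 0.13 SE) and the protease gene Furin (0.13 ± 0.10 SE), with adjusted p of 0.603 to 0.756. In the other list they belonged to Ramp2 (-0.22 ± 0.08 SE) and Ramp3 (-0.23 ± 0.11 SE), which pair with the adrenomedullin receptor, and to the vasopressin receptor gene Avpr1a (0.42 ± 0.21 SE), with adjusted p of 0.399 to 0.600.

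**Figure D5:**
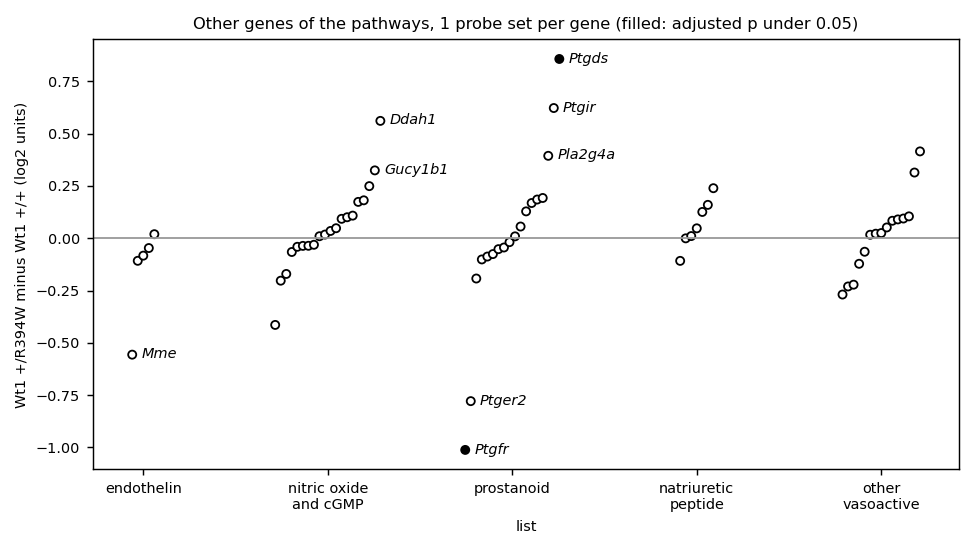
Difference between genotypes (Wt1 +/R394W minus Wt1 +/+, log2 units, y axis) of the 65 other measured genes, 1 point per gene, grouped by list (x axis) and ordered by size within a list. Filled points have an adjusted p under 0.05, which are Ptgds (0.86) and Ptgfr (-1.01).

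The genes most alike to each member were read from deviations from the genotype means over the 10 arrays, among 12260 genes (12261 for Ptgs2) with a mean of at least 6. Edn1 followed Eln, which encodes elastin, at r = 0.978, and had 65 genes at r of at least 0.9. Nos3 was closest to Lrp5 (r = 0.975), Ednrb to Zfp14 (r = 0.951) and Ece1, by its strongest probe set, to Hfe (r = 0.965). Ptgis was closest to Apba3 (r = 0.983), Ptgs2 to Ctsd (r = 0.930), Nos1 to Api5 (r = 0.928) and Npr1 to Mocos (r = 0.945). The second closest genes were 5031439G07Rik, Nr2f6, Mier3, Rab31, Agap1, Scd2, Prss37 and 9130019O22Rik, in the same order of members, at r = 0.921 to 0.977. Each named gene was picked from the top of a ranking of all these genes, which by itself favours high values. The values of r only describe 10 arrays that share preparation and normalization, and no link between the genes was tested.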

How the data were processed

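Total RNA of isolated glomeruli was hybridised to 1 array per mouse, and the authors deposited log2 expression values, made with RMA per the submitters' processing notes, with no version stated there. Genotypes came from the labels, replicate numbers only name mice, and litters are not given. Of 45101 probe sets, 64 controls were left out. Genotypes were compared over 45037 probe sets with limma (version 3.58.1, R version 4.3.3), without covariates, and the two-sided p-values received Benjamini-Hochberg adjustment across that whole table, with 0.05 as the threshold. For gene counts, each gene was read by its brightest probe set on average. The fit was tested on simulated data with known changes. Named genes are all members, called genes of 5 further lists and the 3 with the smallest p of each, and the 2 genes most alike to each member. Single marker genes were picked from 9 marker lists, some after their values were seen. Members and lists were chosen with earlier results of these data known. Alternatives covered normalization, filters on signal, variance models, array weights, probe set types, gene means, threshold, a tubule covariate (23 markers) and mice left out. Promoter sequences and chromosomes came from RefSeq tables (GRCm38.p6). Figures used matplotlib (version 3.10.9) in Python (version 3.11.15).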

Additional observations from a re-analysis of the deposited data

Results flagged for a closer look

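Among 62 groups of 5 mice (31 probe sets of members and named genes, each genotype apart), 4 had a mouse far from the others, where chance flags about 1 in 20. Wild type 2 had a Nos3 value of 10.04 (1422622_at), above 9.72 to 9.80 in the other wild types, and without that mouse the difference between genotypes was -0.31 (adjusted p = 0.149). Wild type 2 also had a low value of 3.98 in Nos1 1458626_at, against 4.11 to 4.15 in the others. Mutant 1 had a Gch1 value of 7.58 (1420499_at), against 7.89 to 8.02 in the other mutants. Mutant 3 had an Npr2 value of 9.61 (1427191_at), against 9.01 to 9.14 in the other mutants.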

How the results depend on the processing

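No paired analysis was possible because the labels give no pairs or litters. Sample titles carry mouse numbers, which lie close together for the 7 mice of the subset below, and what they stand for is not stated. Over 22 alternatives, 641 of 656 values of members and named genes kept their side of the threshold, 14 newly passed, 1 no longer did and 0 turned direction as calls. Differences that were not called could change sign, among them Ece1 1455741_a_at (6 of 21 alternatives), Ptgis (5 of 22) and Ece1 1434177_at (4 of 21). The count of member probe sets called was 0 in all alternatives except 1, Nos3, after quantile normalization (-0.39, adjusted p = 0.0415) and at an adjusted p under 0.10 (-0.37), and 0 whenever 1 mouse was left out. The count of other pathway genes called, 2 in the fit reported, was 4 with a variance trend, with or without robust estimation, at an adjusted p under 0.10 and without mutant 1, and 1 in the 7 mice left after dropping wild types 1 and 5 and mutant 5 (Ptgds lost its call, 0.79, adjusted p = 0.110). When 1 mouse was left out it ran from 2 to 4. All probe sets called numbered 384 (176 higher, 208 lower), 580 (316 lower) at an adjusted p under 0.10 and 110 (58 higher, 52 lower) in those 7 mice. With 1 mouse left out they ran from 216 to 301, with 78 to 140 higher and 137 to 172 lower. They fell to 242 without wild type 1 and to 216 without wild type 4. The number higher was 105, 106 and 78 on dropping wild type 1, 3 or 4, and 112 and 98 on dropping mutant 2 or 3. The causes were not tested. Low signal limits Ptgs2, Ptgfr and most Nos1 probe sets.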
